A study of Mus musculus with 2 samples.

Results

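The genes described encode proteins of the nucleolus. They are *Fbl*, *Nop56*, *Nop58* and *Nhp2l1*, which encode the core proteins of box C/D small nucleolar ribonucleoprotein particles, and *Nolc1*, *Ncl* and *Npm1*, which encode abundant nucleolar proteins. These were chosen by name, for what their proteins do, and are 7 of the 37310 genes of GENCODE release M1 on mm9. Each was counted as the reads on its own strand that overlapped its exons, and reads that overlapped an annotated snoRNA gene were left out. All 7 genes passed the minimum of 10 reads over both libraries.

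The non-polyadenylated (NPA) RNA of mouse R1 embryonic stem cells (ESCs) and of neuronal progenitor cells (NPCs) derived from them was sequenced with its strand kept, as a single library of each. R1 is a male ESC line, at passage 18 here, grown with leukemia inhibitory factor on feeder fibroblasts from mouse embryos that had been treated with Mitomycin C. NPCs were made from the same line without the factor, by 4 days as embryoid bodies and then growth on poly-L-ornithine and fibronectin, and were gathered on day 7. In both cases RNA that bound oligo(dT) was removed first and ribosomal RNA next, so the mRNA reads below come from the fraction left after depletion and do not measure the whole pool of each mRNA. No cell type has a second library, so no test between cell types was possible, and every ratio compares these libraries with an interval for counting error only.

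A box C/D particle is built on a short RNA that carries a C box (consensus RTGATGA in DNA letters) near its 5′ end and a D box (CTGA) near its 3′ end. The particle pairs with ribosomal RNA precursor in the nucleolus and directs methylation of a ribose at the paired site. Fibrillarin, from *Fbl*, is the methyltransferase. The protein of *Nhp2l1* binds the fold formed by the boxes first and is also part of the U4 spliceosomal particle, and NOP56 and NOP58 are paired scaffold proteins. NOLC1 is a chaperone of small nucleolar particles that moves between nucleolus and Cajal bodies. Nucleolin (*Ncl*) takes part in transcription and early processing of ribosomal RNA, and nucleophosmin (*Npm1*) takes part in assembly and export of ribosomal subunits. *Nop56*, *Ncl* and *Nop58* also host snoRNAs in their introns, and C/D snoRNAs are bound by the core proteins described here. Reads over the 4 annotated snoRNA genes of *Nop58* were left out like those of the other hosts and are not described.

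The 5 annotated snoRNAs of these hosts in which both boxes were matched are shown first, since they are the RNAs that the proteins of this class bind. Sequences were read from mm9 on the strand of the gene, 5′ to 3′, with the matched C and D box letters in capitals. Snord110, SNORD56 and Snord57 lie on the plus strand in *Nop56*, at chr2:130101242-130101309, chr2:130103433-130103502 and chr2:130103752-130103823. Snord82 and SNORD20 lie on the minus strand in *Ncl*, at chr1:88252836-88252905 and chr1:88248583-88248662.
Snord110: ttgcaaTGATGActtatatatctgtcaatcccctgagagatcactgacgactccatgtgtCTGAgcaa
SNORD56: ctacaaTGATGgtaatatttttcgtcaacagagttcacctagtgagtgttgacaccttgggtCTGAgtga
Snord57: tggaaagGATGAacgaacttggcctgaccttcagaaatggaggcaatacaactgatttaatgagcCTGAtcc
Snord82: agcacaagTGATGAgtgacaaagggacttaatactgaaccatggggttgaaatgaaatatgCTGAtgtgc
SNORD20: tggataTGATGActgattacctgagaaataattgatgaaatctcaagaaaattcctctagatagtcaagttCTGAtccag
The search took TGATGA, or else TGATG or GATGA, within the first 15 bases and CTGA within the last 15 bases, on the gene strand alone. These letters overlap one another and were matched in 316 of the 1552 annotated snoRNA genes, or 20.4%. The 2 other snoRNAs of these hosts, SNORA51 in *Nop56* and Snora75 in *Ncl*, carry H/ACA names and had no match.

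The files list 4271306 placed reads for ESCs and 4399729 for NPCs, of which the 7 genes took 4096 and 5273. On the opposite strand of the 7 genes there were 6 reads in ESCs and 3 in NPCs. Marker genes were counted to check the labels. All 10 markers of pluripotent cells were lower in the NPC library, and their sum fell from 2411 to 677 RPM (normalised read counts, scaled by the total of placed reads). Of 10 neural progenitor markers, 9 are annotated and 4 had at least 10 reads. The sum of the 9 was 64.9 RPM in ESCs and 67.1 RPM in NPCs, so the library labelled NPC did not stand apart by this sum. Single genes moved in both directions here, with 2 of the 4 higher in NPCs and 2 lower. The ratio of NPC to ESC was 1.78 for *Nes* (1.31 to 2.44) and 0.588 for *Msi1* (0.420 to 0.819). *Pax6* had 1 read in ESCs and 12 in NPCs, and the ratio of *Tubb3*, 0.775 (0.578 to 1.04), has an interval that includes 1. *Sox3*, *Fabp7* and *Neurog2* were at 0 in ESCs and had only 5, 2 and 3 reads in NPCs. All 10 markers of extraembryonic endoderm were more than 2-fold higher in the NPC library, with a sum of 327 RPM in ESCs and 7793 RPM in NPCs, and *Ttr* was the one at 0 in ESCs. The 10 fibroblast markers summed to 68.1 RPM in ESCs and 68.2 RPM in NPCs, with *Lum* at 0 in both, but single genes moved in both directions. *Thy1* had 79 and 12 reads, *Pdgfrb* 93 and 21, and *Col1a2* 51 and 165. The part of cell composition in the ratios below was not tested, and in bulk RNA fewer cells of a type and less RNA per cell cannot be told apart.

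Among the 7 genes, *Ncl* and *Nop58* had RPM values more than 2-fold higher in the NPC library, while *Npm1*, the most abundant of the genes, was lower there. RPM was higher in NPCs for 5 genes and lower for 2. Over the 14503 genes tested, 63.8% were higher in NPCs and 36.2% lower, and the median gene had a log2 ratio of 0.37, so a direction by RPM is given below beside the median gene. More than 2-fold higher in NPCs were 2 of the 7 genes, against 26.0% of all genes, and more than 2-fold lower were 0, against 12.4%. The median log2 ratio of the 7 genes was 0.28, and 4 of them lay below the median gene, against 49.9% of all genes. As a set, the 7 genes therefore lay near the rest of the transcriptome, and they differed among themselves.

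**Figure D1:**
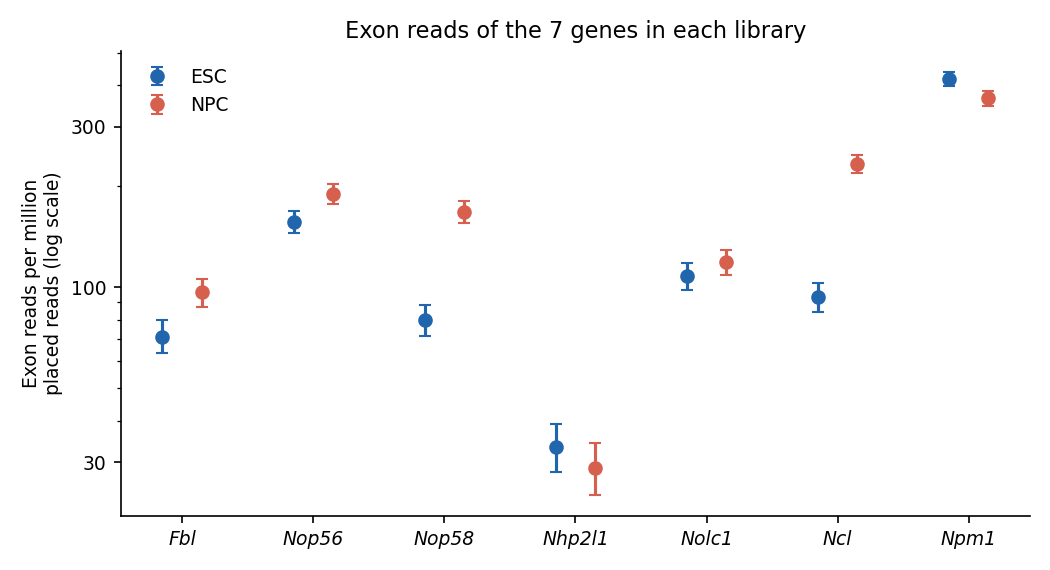
Exon reads of the 7 genes in RPM (log scale) for the ESC and NPC libraries, with exact Poisson 95% intervals as bars. *Npm1* lies highest in both libraries, and the intervals of *Ncl* and *Nop58* are farthest apart between libraries.

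Of the core C/D proteins, *Fbl* (ENSMUSG00000046865.5) lies on the plus strand at chr7:28954765-28964288 and had 304 exon reads in ESCs (Poisson 95% interval 271 to 340) and 424 in NPCs (385 to 466). In RPM this was 71.2 and 96.4, a ratio of NPC to ESC of 1.35 (1.17 to 1.57). The libraries differed by more than counting error, yet *Fbl* lay at percentile 52.6 of all genes by ratio, beside the median gene. Of its 8 exons with at least 10 reads, 6 were higher in NPCs and 2 lower. Exon 1, the only exon with all positions unique in mm9, was lower, with 79 and 49 reads and a ratio of 0.602 (0.413 to 0.871). In exons 5 to 9, 0% of positions are unique.

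*Nop56* had 667 exon reads in ESCs (617 to 720) and 832 in NPCs (776 to 891). The level was 156 RPM in ESCs and 189 RPM in NPCs, a ratio of 1.21 (1.09 to 1.34). *Nop56* was thus slightly higher in NPCs by RPM and 0.10 below the median gene on the log2 scale.

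*Nop58*, whose protein pairs with that of *Nop56*, had 340 exon reads in ESCs (305 to 378) and 737 in NPCs (685 to 792). Its level was 79.6 RPM in ESCs and 167.5 RPM in NPCs, a ratio of 2.10 (1.85 to 2.40). The intervals of *Nop58* and *Nop56* for the ratio do not overlap, but with each start position counted once, at 1.18 (0.924 to 1.52) and 0.910 (0.759 to 1.09), they do. All 10 of the *Nop58* exons with at least 10 reads were higher in NPCs, with ratios from 1.25 in exon 14 to 5.58 in exon 2.

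*Nhp2l1* had the fewest reads placed at the gene, 142 in ESCs (120 to 167) and 127 in NPCs (106 to 151). Its 33.3 RPM in ESCs and 28.9 RPM in NPCs gave a ratio of 0.868 (0.678 to 1.11). The libraries could not be told apart for *Nhp2l1* at this depth, although its ratio was 0.58 below the median gene on the log2 scale.

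Of the nucleolar proteins, *Nolc1* had 459 exon reads in ESCs (418 to 503) and 521 in NPCs (477 to 568). Its ratio of 1.10 (0.970 to 1.25) includes 1, so no difference was detectable at this depth.

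*Ncl* had 399 exon reads in ESCs (361 to 440) and 1026 in NPCs (964 to 1091), or 93.4 and 233 RPM. Its ratio of 2.50 (2.22 to 2.81) was the highest of the 7 genes and lay at percentile 82.6 of all genes. The difference was spread over the transcript, since 12 of the 13 *Ncl* exons with at least 10 reads were higher in NPCs. The exception was exon 1, with 15 reads in each library, and the highest exon ratio was 6.63, in exon 11 with 6 reads in ESCs and 41 in NPCs.

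*Npm1* had 1785 exon reads in ESCs (1703 to 1870) and 1606 in NPCs (1528 to 1687), or 418 and 365 RPM. Its ratio of 0.874 (0.816 to 0.935) is below 1 by more than counting error and lay at percentile 29.6 of all genes. Of its 9 exons with at least 10 reads, 6 were lower in NPCs.

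By RPM, *Ncl* and *Nop58* were higher and *Npm1* lower in NPCs under all 10 ways of counting and scaling, but the size was not kept. The 2 changes of scaling move all genes alike, so values relative to the median gene are compared over the 8 ways of counting only. Over these, *Ncl* was 0.59 to 1.02 above the median gene on the log2 scale, *Nop58* 0.21 to 0.76 above and *Npm1* 0.35 to 0.63 below. For reads of unique sequence and for reads identical to the transcript, only the 7 genes were recounted. Their values there are set against the median gene of the main count, which is an unlike comparison. *Nop56*, *Nolc1* and *Nhp2l1* lay below the median gene in all 8, and *Fbl* above it in 6. By RPM, *Nop56*, *Nolc1* and *Fbl* were higher in NPCs in 6, 7 and 8 of the 10. Both scalings turned *Nop56* and *Nolc1* but not *Fbl*, which was lower in NPCs with each start position counted once and with reads of unique sequence alone. With starts counted once, the ratio was 1.54 for *Ncl* (1.30 to 1.83), 0.804 for *Npm1* (0.681 to 0.948) and 1.18 for *Nop58* (0.924 to 1.52), and the intervals of *Nop58*, *Fbl* and *Nop56* then include 1.

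**Figure D2:**
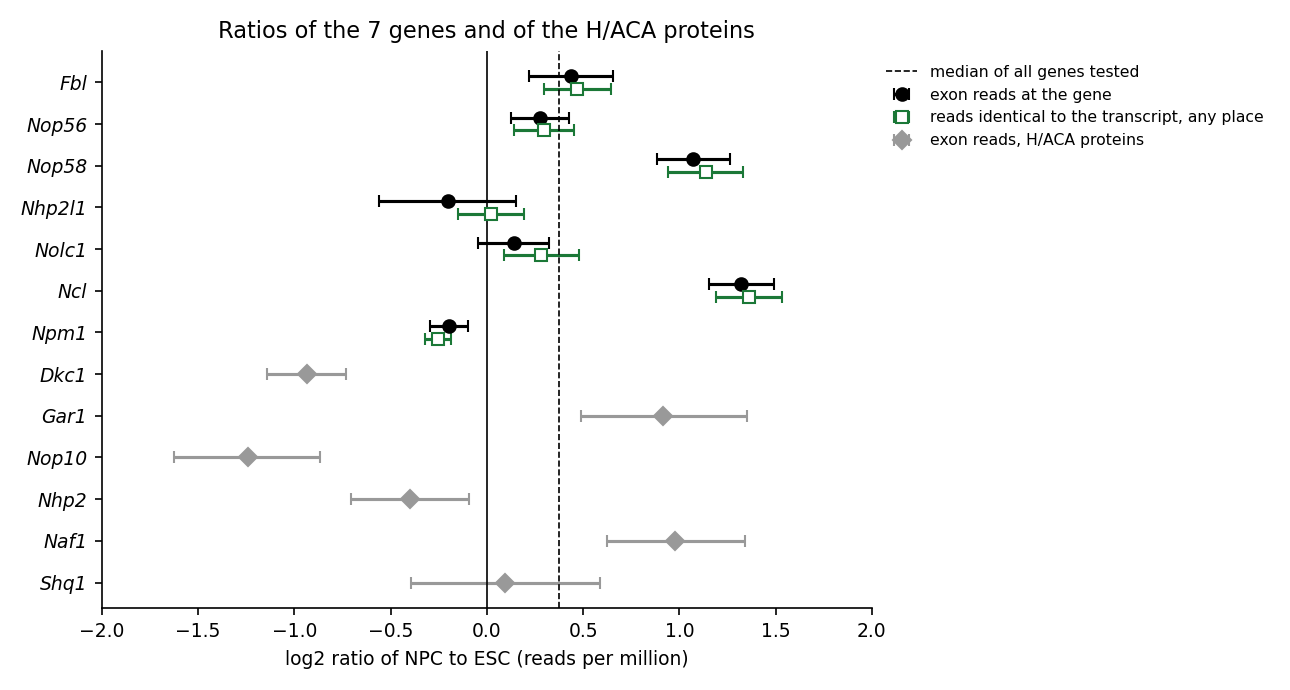
Log2 ratio of NPC to ESC in RPM for the 7 genes and for the proteins of H/ACA particles, with 95% counting intervals as bars. Filled circles are reads placed at the gene, and open squares are reads identical to the spliced transcript at any place. The dashed line is the median of all genes tested, by exon reads placed at the gene only. *Nop58* and *Ncl* lie right of this line and *Npm1* left of it by both counts.

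Levels of different genes were compared per kilobase of exon (RPKM). *Npm1* stood highest at 157 RPKM in ESCs and 137 RPKM in NPCs, followed by *Fbl* at 61.3 RPKM and 83.0 RPKM. In ESCs the order went on with *Nop56* (38.1 RPKM), *Nop58* (30.8 RPKM), *Nolc1* (29.6 RPKM), *Nhp2l1* (15.6 RPKM) and *Ncl* (11.3 RPKM). *Nop58* and *Nolc1* are neighbours that did not differ beyond counting error in ESCs. In NPCs *Nop58* (64.8 RPKM), *Nop56* (46.1 RPKM), *Nolc1* (32.6 RPKM), *Ncl* (28.2 RPKM) and *Nhp2l1* (13.6 RPKM) followed. This order depends on the length used, since the exons of *Nop56* span 4099 nt with retained introns against 1877 nt in its representative transcript, and the last exon of *Ncl* alone is 5978 nt long and sparsely covered. It also counts only reads placed at the gene. For *Nhp2l1*, 402 of 541 ESC reads identical over 48 nt to its spliced transcript lay elsewhere. That total, not divided by length, was above those of *Fbl*, *Nop58*, *Nolc1* and *Ncl* and below those of *Nop56* and *Npm1*. These totals are not alike, since reads over an exon junction enter them only where mm9 holds the joined sequence. It holds 100% of the 48-nt junction stretches of *Nhp2l1*, 33.3% of those of *Nop56* and 4.56% of those of *Nop58*.

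Over coding bases only, with reads assigned by their 5′ end, *Npm1* still stood highest at 176 RPKM in ESCs and 129 RPKM in NPCs. *Nop56* (61.5 RPKM) then stood above *Fbl* (53.2 RPKM) in ESCs and below it in NPCs (74.3 RPKM against 84.8 RPKM). *Nop58*, at 25.0 RPKM, was last in ESCs and at 62.3 RPKM stood below *Nop56* in NPCs. The other levels were 42.0 and 41.0 RPKM for *Nolc1*, 34.1 and 25.5 RPKM for *Nhp2l1*, and 27.2 and 63.1 RPKM for *Ncl*. Reads placed away from the genes are missing from these levels too.

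Reads of several members were also placed far from their genes. Alignment was to the genome only, without a requirement that a placement be unique, so a read that spans an exon junction, or that matches a processed copy as well as the gene, can lie at the copy. To measure this, reads identical over all 48 nt to the spliced transcript were counted wherever they had been placed. For *Npm1*, 2431 of 4051 such reads in ESCs (60.0%) and 2080 of 3499 in NPCs (59.4%) lay away from the gene. Of these, 1525 and 1285 covered an exon junction. Most identical reads of *Npm1* were therefore not counted in its exons.

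The largest *Npm1* copies were the pseudogene *Gm14681* at chrX:64031612-64031950, with 627 reads in ESCs and 515 in NPCs, and a locus with no annotated gene at chr10:56217109-56217846, with 554 and 455. A further unannotated locus at chr10:38918316-38918951 had 493 and 467 reads, and *Gm5611* on chromosome 9 had 420 and 354. At each of these 4 loci the counts were lower in NPCs, as at the gene. *Gm7289* (30 and 41 reads) and *Gm17060* (13 and 16) went the other way. Reads at all these loci are identical to the *Npm1* transcript and could stem from the gene, so they are no separate support.

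*Nhp2l1* had an even larger share elsewhere, 402 of 541 reads in ESCs (74.3%) and 446 of 566 in NPCs (78.8%). They lay mainly at *Gm5616* on chromosome 9 (159 and 216 reads) and at the pseudogene *Gm8741* on chromosome 17 (165 and 158 reads). For *Fbl* the share was 47.6% in ESCs and 42.7% in NPCs, with 189 and 244 reads at the pseudogene *Gm5812* on chromosome 17. For *Nop56* it was 35.5% and 34.8%, with 122 and 128 reads at an unannotated locus at chr19:5436038-5436757.

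In contrast, *Ncl* had 5.73% of its identical reads elsewhere in ESCs and 6.59% in NPCs, and *Nop58* and *Nolc1* had 0 in both libraries. Few junction-spanning 48-nt stretches of these genes occur in mm9, 4.56% for *Nop58*, 4.97% for *Nolc1* and 10.6% for *Ncl*. The share was 74.3% for *Npm1* and 100% for *Nhp2l1*. The *Ncl* reads elsewhere lay mainly at the pseudogene *Gm12020*, with 20 reads in ESCs and 66 in NPCs. Read counts of *Nop58* and *Nolc1* thus rest on the gene itself, and those of *Ncl* mostly do. Those of *Npm1*, *Nhp2l1*, *Fbl* and *Nop56* are uncertain, because identical reads could have come from the gene or from a transcribed copy.

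With identical reads counted at any place, the ratio of NPC to ESC was 2.57 for *Ncl* (2.28 to 2.90), 2.20 for *Nop58* (1.92 to 2.52) and 0.839 for *Npm1* (0.801 to 0.878). It was 1.39 for *Fbl* (1.23 to 1.56) and 1.23 for *Nop56* (1.10 to 1.37). These differ little from the ratios at the genes. *Nhp2l1* moved to 1.02 (0.901 to 1.15), and *Nolc1*, at 1.22 (1.06 to 1.40), now lay above 1. *Nolc1* gained no reads from elsewhere. Its exon reads of 459 in ESCs and 521 in NPCs became 383 and 480 when identity over 48 nt was required. This demand thus kept unequal shares of its reads in the libraries. *Fbl* goes the other way when reads of unique sequence alone are kept, with 90 reads in ESCs and 73 in NPCs and a log2 ratio of -0.34, but only 14.5% of its 48-nt exon windows are unique in mm9.

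**Figure D3:**
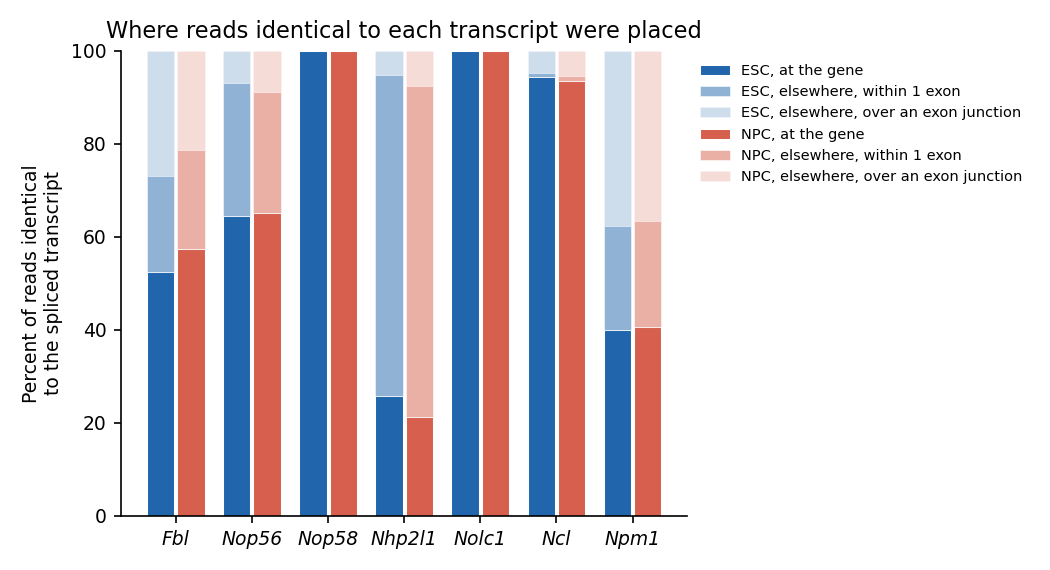
Percent of reads identical over 48 nt to each spliced transcript that were placed at the gene, elsewhere within 1 exon, or elsewhere over an exon junction (light shade), in ESCs (blue) and NPCs (red). All such reads of *Nop58* and *Nolc1* lie at the gene, while 60.0% of those of *Npm1* and 74.3% of those of *Nhp2l1* in ESCs lie elsewhere.

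Coverage of the transcripts was uneven. In each library, the 10 most used start positions of a gene held between 20.6% (*Ncl* in NPCs) and 50.9% (*Nop58* in NPCs) of its reads. Of the 10 most used starts in each library, the libraries shared 7 for *Fbl* and *Nop58*, 6 for *Nop56* and *Npm1*, 4 for *Nhp2l1* and *Ncl*, and 3 for *Nolc1*. Reads piled up at one base cannot be told from copies of a single fragment without molecular identifiers.

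The coding positions where most reads of a gene began are shown for the 5 genes in which that 48-nt stretch occurs once in mm9, so that these piles belong to the gene itself. The first base, in capitals, is where the reads began, and the sequence is on the gene strand.
Npm1, exon 4, chr11:33060867-33060914, minus strand: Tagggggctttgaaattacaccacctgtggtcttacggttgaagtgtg
Nolc1, exon 3, chr19:46153364-46153411, plus strand: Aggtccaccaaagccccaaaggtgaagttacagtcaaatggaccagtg
Nop58, exon 8, chr1:59760987-59761034, plus strand: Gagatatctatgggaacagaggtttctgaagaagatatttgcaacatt
Nop56, exon 4, chr2:130101505-130101552, plus strand: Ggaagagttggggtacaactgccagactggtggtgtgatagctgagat
Ncl, exon 3, chr1:88253725-88253772, minus strand: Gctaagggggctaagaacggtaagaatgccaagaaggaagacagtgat
The *Npm1* position had 191 reads in ESCs and 123 in NPCs, or 10.7% and 7.66% of the exon reads of the gene. The *Nolc1* position had 44 and 20, where the whole gene had 459 and 521. The *Nop58* position had 22 and 52 reads, the *Nop56* position 21 and 38, and the *Ncl* position 11 and 32. These 3 positions had more reads in NPCs, as their genes had by RPM.

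Where the reads lay along each spliced transcript was compared with the question of a 5′ bias in NPA reads over exons. For *Ncl*, 86.1% of ESC reads and 87.4% of NPC reads lay 5′ of the midpoint of the transcript, the highest share of the 7 genes, beside 3′ untranslated sequence of 5904 nt that holds 71.5% of its length. The share was 72.3% and 59.5% for *Nolc1*, 64.2% and 68.5% for *Nop56*, 63.9% and 58.7% for *Npm1*, and 56.3% and 70.2% for *Nop58*. *Fbl* (44.8% and 37.5%) and *Nhp2l1* (48.6% and 43.4%) had more reads 3′ of the midpoint. So 5 of the 7 genes had most reads 5′ of the midpoint in both libraries, against 64.6% of 4020 protein-coding genes in ESCs and 59.2% in NPCs, and the median share was 63.9% in ESCs and 59.5% in NPCs. Cutting at the middle of the genomic span and summing whole exons instead gave medians of 36.4% and 42.1%. That share takes no account of the exon length on each side, and the last exon of *Ncl* alone is 5978 nt long. No value over all genes was taken for this cut, so a bias toward either end cannot be read from it.

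In *Npm1*, *Fbl* and *Nop58* the reads placed at the gene formed separate peaks. Reads placed at copies are missing from these profiles, in ESCs 60.0% of the identical reads of *Npm1* and 47.6% of those of *Fbl*. In *Npm1*, 93.7% of the 48-nt positions of exon 1 and 77.8% of those of exon 11 are unique in mm9, 19.1% of those of exon 4, and 0% of those of exons 3 and 5. How far this shaped the peaks was not tested. When each spliced transcript was cut into 10 equal parts from the 5′ end, part 2 of *Npm1* held 35.7% of its ESC reads and 36.3% of its NPC reads, and part 8 held 21.7% and 29.2%. The 5′ untranslated part of *Npm1*, 227 nt or 13.9% of the annotated length, held 32.8% and 31.8%. In *Fbl* part 6 held 30.3% and 34.1%, and exon 2 had 0 reads in both libraries although it is 183 nt long. In *Nop58* part 7 held 35.3% for ESCs and 23.2% for NPCs, while part 4 held 26.2% and 29.2%. *Ncl* had its reads near the 5′ end, and in NPCs they fell from 31.0% in part 3 to 13.2% in part 4 and 0.200% in part 10. *Nolc1* held 19.0% of its ESC reads in part 1 and 1.77% in part 10, with 10.0% and 1.38% in NPCs.

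Exon by exon, reads placed at the gene alone were again counted. The densest exon of *Npm1* was exon 4 in both libraries, with 3319 reads per kilobase for ESCs and 2021 for NPCs. That of *Ncl* was exon 5, with 299 and 621, and that of *Nhp2l1* was exon 3, with 127 and 115. For the other members the densest exon differed between libraries. It was exon 1 of *Fbl* for ESCs and exon 6 for NPCs, exons 7 and 5 of *Nop56*, exons 8 and 2 of *Nop58*, and exons 3 and 5 of *Nolc1*. Among exons of at least 48 nt, the sparsest of a gene was the same in both libraries for *Fbl* (exon 2, at 0), *Nhp2l1* (exon 1, 26.8 and 0 reads per kilobase), *Npm1* (exon 2, 12.5 and 25.0) and *Nop56* (exon 11, 29.6 and 59.3).

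**Figure D4:**
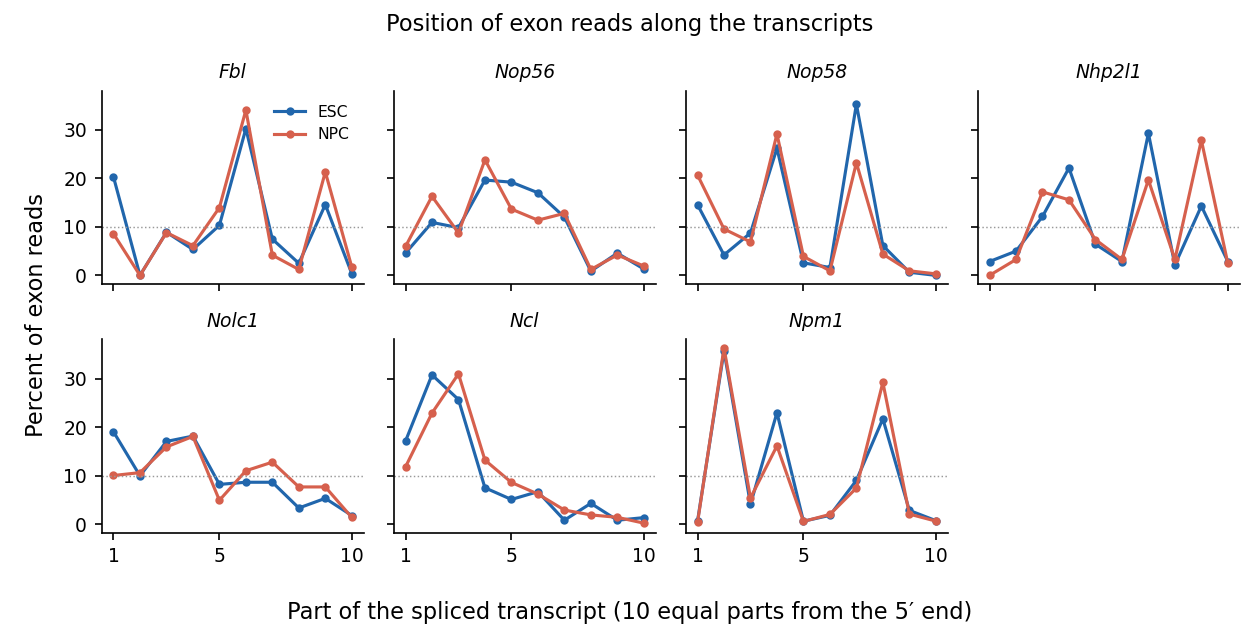
Percent of exon reads in each of 10 equal parts of the spliced transcript, from the 5′ end, for the 7 genes in ESCs (blue) and NPCs (red), with a dotted line at 10%. The highest part is the same in both libraries for *Npm1* (part 2), *Fbl* (part 6) and *Nop56* (part 4), and differs for *Ncl*, *Nhp2l1*, *Nop58* and *Nolc1*.

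Introns were read on the gene strand outside annotated snoRNAs. *Nop58* had 371 intron reads in ESCs (334 to 411) and 233 in NPCs (204 to 265), a ratio of 0.610 (0.515 to 0.720). Its introns were thus lower in NPCs where its exons were 2.10-fold higher. The number of exon reads per intron read went from 0.916 to 3.16, an odds ratio of 3.45 (exact conditional interval 2.79 to 4.27).

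*Ncl* had 46 intron reads in ESCs and 41 in NPCs, and its exon reads per intron read went from 8.67 to 25.0, an odds ratio of 2.88 (1.82 to 4.58). *Nolc1* had 25 and 13 intron reads, with an odds ratio of 2.18 (1.06 to 4.70). *Npm1* introns, with 310 and 259 reads, gave an odds ratio of 1.08 (0.898 to 1.29), which includes 1. For *Fbl*, *Nop56* and *Nhp2l1* the intervals of the odds ratio include 1, on 21 and 35, 9 and 10, and 7 and 10 intron reads. Retained introns were counted as exons of *Nop56*, which left 684 nt as intron. Its odds ratio thus does not set spliced against intronic RNA. The excess of *Ncl* and *Nop58* in NPCs was therefore seen in exon reads and not in intron reads. Per base, intron reads had a median density of 5.61% of that of exons in ESCs and 4.04% in NPCs over the 7 genes, which became 21.1% and 8.33% with each start position counted once. Reads over repeats had been removed by the authors, while the lengths used here include any repeats. How far this lowered the intron densities was not tested.

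**Figure D5:**
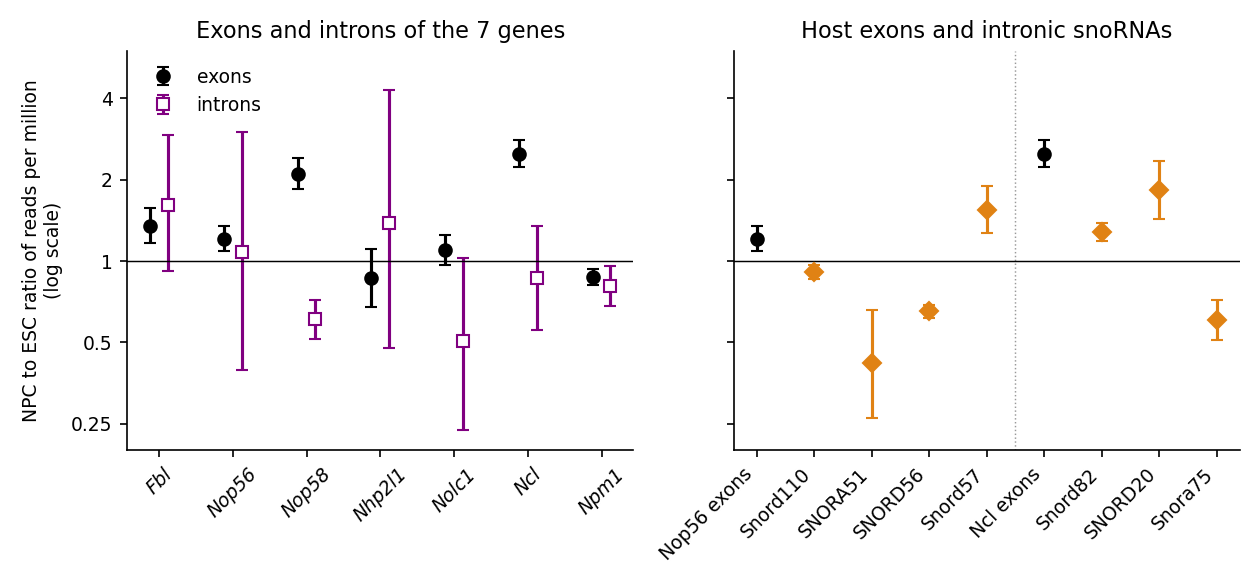
Ratio of NPC to ESC in RPM (log scale, 95% counting intervals as bars) of exons and introns of the 7 genes (left), and of the exons of *Nop56* and *Ncl* beside the snoRNAs in their introns (right). *Nop58* and *Ncl* have exon ratios above 2 and intron ratios below 1, and no snoRNA reaches the exon ratio of *Ncl*.

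As a sum, the snoRNAs within *Nop56* and *Ncl* had lower ratios than the exons of their hosts. *Nop56* carries 4 snoRNA genes, with 5471 reads in ESCs and 4404 in NPCs, a ratio of 0.782 (0.751 to 0.813) where the exons had 1.21. The reads of Snord110 numbered 2247 and 2102, a ratio of 0.908 (0.855 to 0.964). Those of SNORD56 numbered 2989 and 2005. Only Snord57 was higher in NPCs, with 168 and 268 reads and a ratio of 1.55, while SNORA51 had 67 and 29. snoRNA reads per exon read of the host went from 8.20 to 5.29.

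*Ncl* carries 3 snoRNA genes, with 1754 and 2112 reads, a ratio of 1.17 (1.10 to 1.25) where the exons had 2.50. Snord82 had 1281 reads in ESCs and 1690 in NPCs, SNORD20 had 101 and 190, and Snora75 had 372 and 232. Both C/D snoRNAs of *Ncl* were higher in NPCs and the H/ACA-named one was lower. snoRNA reads per exon read of *Ncl* went from 4.40 to 2.06. Had reads over snoRNA genes been kept, *Nop56* would have had a log2 ratio of -0.35 in place of 0.28.

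In the C/D snoRNAs printed above, most reads began at 1 base close to the 5′ end. For ESCs 94.5% of the Snord110 reads and 91.2% of the SNORD56 reads began at base 2, and for NPCs 94.2% and 92.7% did. For SNORD20 base 2 took 84.2% and 85.3%, and for Snord82 base 4 took 59.6% and 69.4%. The exon reads of the hosts had no start that took over 15% of the reads.

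One more pile lies in intron 8 of *Nop56*, chr2:130102869-130103211, where GENCODE M1 annotates no snoRNA gene but some transcripts retain the intron, so its reads entered the exon count. It had 160 reads in ESCs and 196 in NPCs, or 24.0% and 23.6% of the *Nop56* reads, and 66 and 121 of them began at 1 base, position 130102934. This pile was singled out after its values were seen. Its sequence is shown from 1 base before that start, chr2:130102933-130103014 on the plus strand, with the same box letters in capitals.
Nop56 intron 8: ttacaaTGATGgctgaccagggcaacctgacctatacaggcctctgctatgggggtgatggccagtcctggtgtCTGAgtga
Both box letters lie near the ends of this stretch of 82 nt, which was cut to end 4 bases after the last CTGA. With the exons of the representative transcript alone, which leave out intron 8, the log2 ratio of *Nop56* was 0.27.

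Proteins that load, assemble or modify these particles and ribosomal subunits were counted from lists of genes. Of 10 genes for C/D assembly and transport, 8 were higher in NPCs by RPM (63.8% of all genes were) and 5 lay below the median gene (49.9% of all genes). The median log2 ratio was 0.35, near the 0.37 of all genes. *Ruvbl2*, an ATPase of the R2TP assembly complex, had 1052 reads in ESCs and 435 in NPCs, a ratio of 0.401 (0.358 to 0.449). It was the 1 gene of the 10 more than 2-fold lower, near the 12.4% of all genes. Its partner *Ruvbl1* had 130 and 207 reads, a ratio of 1.55 (1.24 to 1.94). *Nufip1*, which ties that complex to the particle, had 208 and 162 reads, and *Phax*, an export adaptor, had 171 and 245. By RPM the paired ATPases thus went in opposite directions between the libraries.

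Of 35 genes of the small subunit processome, which includes the U3 C/D particle, 27 were higher in NPCs by RPM (63.8% of all genes were), 5 were more than 2-fold higher (26.0% of all genes) and 0 more than 2-fold lower (12.4%). Their median log2 ratio was 0.49, and 12 of the 35 lay below the median gene (49.9% of all genes did). *Dhx37*, a helicase, had 95 and 239 reads, and *Bms1*, a GTPase, had 120 and 248. *Rcl1* had 104 and 60 reads, and *Rrp9*, the U3-specific protein, had 196 and 131. Of 33 annotated genes for assembly of the large subunit, 25 were higher by RPM, 2 more than 2-fold higher and 0 more than 2-fold lower, against the same shares of all genes. Their median was 0.32, and 18 of the 33 lay below the median gene (49.9% of all genes). *Rrp1* (62 and 181 reads) and *Ddx51* (68 and 141) had the highest ratios, and *Gnl3l* (1020 and 607) and *Nle1* (111 and 78) the lowest. The medians of these lists lay within 0.12 of the median gene on the log2 scale.

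The proteins of H/ACA particles, the other class of small nucleolar particles, had a median log2 ratio of -0.15 over 6 genes, 0.52 below the median gene. *Dkc1*, the pseudouridine synthase, had 570 reads in ESCs and 307 in NPCs, a ratio of 0.523 (0.454 to 0.602). *Nop10* had 195 and 85 reads and *Nhp2*, a relative of *Nhp2l1*, had 206 and 161. *Gar1* (70 and 136 reads) and the assembly factor *Naf1* (98 and 199 reads) were higher in NPCs, and *Shq1* had 69 and 76. The ratios of the catalytic subunits, 1.35 for *Fbl* and 0.523 for *Dkc1*, have intervals that do not overlap. The ratio of *Fbl* was not stable, since with each start position counted once it was 0.805 (0.606 to 1.07). No such value is given for *Dkc1*, and reads of *Dkc1* placed at copies were not counted.

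Relatives of the 7 genes were counted too. *Prpf31*, which shares the NOP domain with *Nop56* and *Nop58* but acts in the U4/U6 spliceosomal particle, had 104 and 214 reads, a ratio of 2.00 (1.57 to 2.55). *Tcof1*, a relative of *Nolc1*, had 85 and 155, and *Npm3* had 63 and 54. *Fbll1* had 1 read in ESCs and 0 in NPCs, and *Npm2* 0 and 2, so no fold is given for them. Of the Myc family, whose proteins are known regulators of ribosome production genes, *Myc* had 21 and 108 reads, a ratio of 4.99 (3.11 to 8.39), *Mycn* had 320 and 204, a ratio of 0.619, *Mycl1* had 67 and 65 and *Max* had 106 and 270. *Myc* had the highest ratio of these, while *Mycn* kept more reads than *Myc* in both libraries.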

How the data were processed

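NPA RNA of ESCs and NPCs was sequenced on a SOLiD 3 machine. The authors aligned reads to mm9 with Bowtie, whose version is not given in the sources used here, took the best placement without requiring uniqueness, and removed mitochondrial, ribosomal and repeat reads. They deposited 1 line per placed read, with chromosome, start, end, strand and 48 nt of sequence.

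The members and lists were chosen with earlier results of these data known. Reads were counted by gene strand over the union of GENCODE M1 exons, with any overlap, leaving out reads over snoRNA genes, and divided by the library total to give RPM. RPKM divides by exon length. Counts carry exact Poisson, shares Clopper-Pearson and ratios conditional binomial 95% intervals, which cover counting error only. A count of 0 was taken as up to 3 reads. No test was run with 1 library per group. Genes are named by a rule that takes the 7 genes, the H/ACA proteins, relatives and markers, and from each pathway list the 2 highest and 2 lowest ratios among genes with at least 100 reads in a library. The whole genome was searched for every 48-nt stretch. Start positions on the representative transcript gave the profiles. Alternatives changed the scaling, the overlap rule, the exon set, the snoRNA filter and the use of repeated starts or sequences. The values of 1 marker gene are not reported here. Counting was tested on simulated data. The work used Python 3.11.15, numpy 2.4.6, pandas 2.3.3, scipy 1.17.1, matplotlib 3.10.9 and samtools 1.23.1.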

Additional observations from a re-analysis of the deposited data

How the results depend on the processing

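With each start position and strand counted once, the median log2 ratio of the 7 genes was -0.14, with *Fbl* at -0.31 and *Nop56* at -0.14, and the median of all genes fell to 0.03. Scaling by the median of gene ratios gave -0.088, and scaling by coding exon reads -0.12, with *Nop56* at -0.088 and -0.12; these move all genes together, so the number of genes below the median gene stayed within 1.5 times of 4. *Nop56* was at -0.35 with snoRNA reads kept, and *Fbl* at -0.34 with reads of unique sequence. The median for large subunit assembly was -0.025, -0.047 and -0.082 under start positions once and these scalings. Of 63 alternative ratios of single genes, 41 lay within the counting interval of the value given, 16 moved beyond it and 6 reversed. Of 40 list medians 34, 3 and 3 did, by an interval over the genes of the list. A reversal was called only where the interval of the value given excluded equal RPM. Changes of sign of *Nolc1*, *Nhp2l1* and the median for C/D assembly and transport are therefore not counted as reversed. The share of reads 5′ of the midpoint was 71.5% in ESCs and 70.8% in NPCs at positions of unique sequence. It was 36.4% and 42.1% with whole exons split at the middle of the gene, a cut that takes no account of exon length. Intron density was 21.1% of exon density in ESCs and 8.33% in NPCs with starts counted once. The cause was not tested except for the scalings. Counting identical reads wherever placed was chosen after seeing the data. No paired analysis was possible because each cell type has 1 library, and for the same reason no library could be left out. At this depth no difference in RPM at the gene was detectable for *Nhp2l1* and *Nolc1*.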
